A study of Mus musculus with 6 samples.

Results

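The chemokines and chemokine receptors are 61 gene symbols among the 38926 in the count files. They were taken by name: every symbol of the Ccl, Cxcl, Xcl, Ccr, Cxcr and Xcr series, and Cx3cl1, Cx3cr1, Ackr2, Ackr3, Pf4 and Ppbp. The 61 divided into 41 ligands and 20 receptors. The tissue was the dorsal root ganglion, which houses the cell bodies of the body's sensory neurons, at lumbar levels L3 to L5. The burn group held 3 libraries made 3 days after a burn injury, and the control group held 3 libraries for which the labels give no day or treatment. All 6 came from male wild-type C57BL/6 mice aged 6 to 8 weeks. One burn library, called burn 3 here, is titled IP and carries no number. Its title does not spell out IP or name a side of the body, and no side is given for the other burn libraries. The labels call the tissue neurons and also whole ganglia. The transcripts of neurons, glia, macrophages, fibroblasts, endothelium and blood cells were all counted, so the libraries are described here as whole ganglia. No label says that the libraries of a group came from separate animals, and p-values then measure only the spread between these libraries, which may be technical.

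Chemokines are small secreted proteins that direct the movement of leukocytes along a gradient. They are named for the spacing of their first cysteines as CC, CXC, CX3C and XC ligands, and they act on G protein-coupled receptors with matching names, while atypical receptors bind ligands without coupling to G proteins and so clear or shape the gradient. In injured sensory ganglia the Ccl2 and Ccr2 pair and the Cx3cl1 and Cx3cr1 pair are known for their part in macrophage recruitment and pain.

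Reads in genes ran from 17273908 in control 2 to 81968142 in control 3. Burn 3 and control 3 were the 2 deepest libraries, with 1.945 times as many reads in the shallower of them as in the next library down, and the first principal component, 39.4% of the variance, set these 2 apart from the other 4. Atf3, a gene known to rise in injured sensory neurons, served as a check of the labels. Its level was 80.9, 75.6 and 60.05 CPM (reads relative to the scaled size of the library) in burn 1, 2 and 3 and 6.99, 6.73 and 7.20 CPM in control 1, 2 and 3. The log2 fold change between the groups was 3.37 ± 0.15 (standard error, SE) and the edgeR adjusted p was 0.000387. Chemokine and receptor reads together made up 0.0239% of gene reads in burn 3, the lowest share, with bounds of 0.0236 and 0.0243 (95%, Wilson), and 0.0394% in control 1, the highest, with bounds of 0.0387 and 0.0400. Such intervals cover counting error only.

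Of the 61 members, 55 had reads in some library and 49 had reads in every library. Ccl21b, Ccl21c, Ccl26, Ccl27b, Cxcl3 and Cxcl15 had 0 reads in all 6. A count of 0 allows up to 3 reads. On plain rather than scaled library totals, that was 0.174 CPM in control 2 and 0.0366 CPM in control 3. A read that aligned equally well to near-identical copies may have been left out of the counts, and this touches the Ccl21 and Ccl27 copies in particular. The atypical receptor Ackr1, which binds many inflammatory chemokines on venules and red cells, had no row of that name and is listed under its older symbol Darc. In the Darc row the burn libraries held 26.7, 27.2 and 33.5 CPM and the control libraries 19.0, 22.8 and 27.3 CPM, so the groups overlapped (log2 fold change 0.34 ± 0.17; edgeR unadjusted p = 0.0765). Its exons overlap those of Cadm3 on the same strand, which may affect its counts.

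Levels of different members were compared per kilobase of annotated exon, as RPKM, and Darc, not a member by name, was left out. In the controls the highest means belonged to the platelet chemokines Ppbp, at 23.1 ± 16.8 RPKM (SD, n = 3), and Pf4, at 19.3 ± 8.95 RPKM. Cxcr4, the receptor of Cxcl12, followed at 16.7 ± 1.72 RPKM, and its level lay within the spread of both. Ccl11, an eosinophil attractant also known as eotaxin, had 10.97 ± 1.06 RPKM, and Cxcl12, the stromal ligand that holds Cxcr4-bearing cells in bone marrow, had 8.30 ± 2.38 RPKM. Ccl6, a macrophage and neutrophil product, had 7.99 ± 2.52 RPKM, within the spread of Cxcl12. The receptors Ccr2 (4.94 ± 0.91 RPKM), Cx3cr1 (4.57 ± 0.90 RPKM) and Ackr3 (4.14 ± 0.52 RPKM) came next and did not differ beyond their spread. Ccl2, Ccl8 and Ccl12 stood much lower in the controls, at 1.38 ± 0.43, 1.30 ± 0.28 and 2.18 ± 0.62 RPKM.

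**Figure D1:**
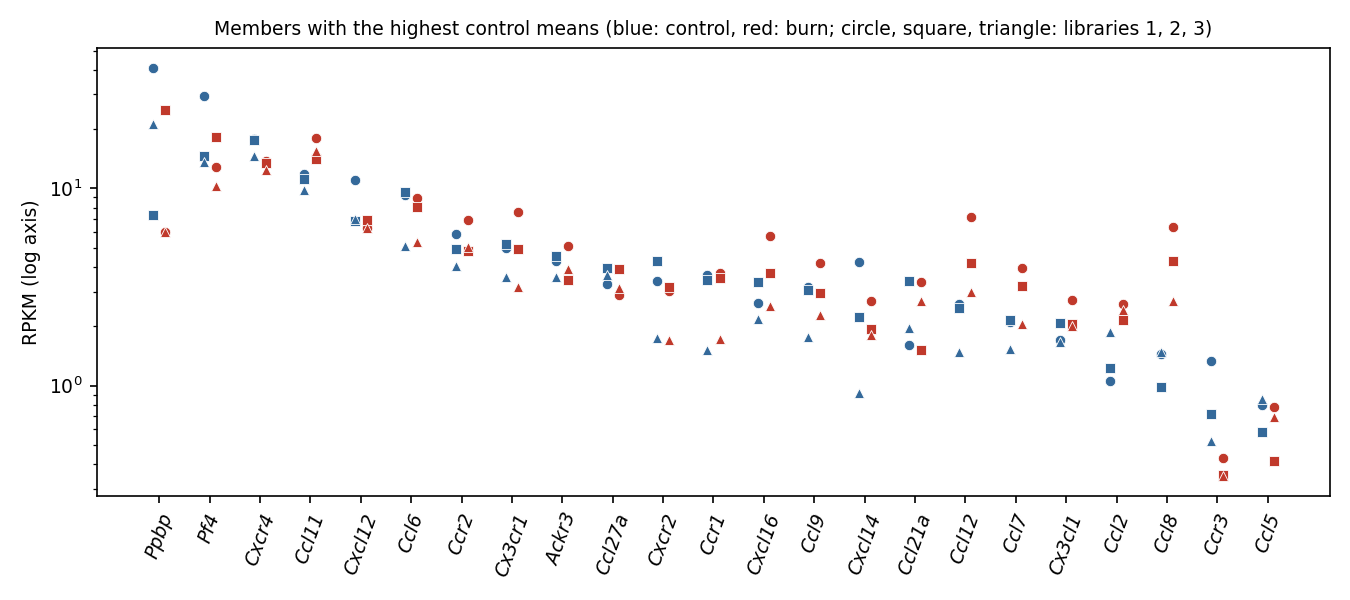
RPKM on a log axis of 23 members with the highest control means, each library as a point (blue control, red burn). Ppbp ranks highest with a wide spread between libraries, and Cxcr4 holds a narrow range near 16.7 RPKM in the controls.

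Of the 61 members, 40 had enough reads to be tested, 24 ligands and 16 receptors. None was called higher or lower in burn at an edgeR adjusted p under 0.05, a threshold that 4 of the 17534 genes tested passed (0.0228% higher, 0.0% lower). At an unadjusted p under 0.05, 5 members were higher and 2 were lower, that is 12.5% and 5.0% of those tested, beside 2.04% and 0.924% of all genes. Among the 5 were the ligands Ccl8, Ccl12, Ccl2 and Ccl11, and the 2 were the receptors Ccr3 and Cxcr4. In the same 7 members, and in no other tested member, the burn and control levels did not overlap. Over all genes 4.33% had every burn library above the controls and 2.91% had every burn library below, 7.24% in either direction. On CPM from plain library totals, 4 members lay above and 3 below, Ccr7 being the one added below. The all-gene shares just given are on scaled library sizes, and none was computed on plain totals. DESeq2 called 1 member, Ccl8, at an adjusted p of 0.0375, where it called 0.132% of 21260 genes higher. The count of members higher at an unadjusted p under 0.05 dropped to 3 when burn 1, control 1 or control 2 was left out in turn, and the count lower dropped to 1 when burn 3 or control 1 was left out. The median log2 fold change over the 40 was 0.11, with 23 positive (57.5%), beside 0.01 and 52.1% over all genes. Leaving out burn 1 or control 3 brought that median to -0.10 and -0.01.

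The lowest unadjusted p among the members belonged to Ccl8. Ccl8, also called MCP-2, is produced by macrophages and acts on Ccr8 in mice. It had 3.27, 2.19 and 1.37 CPM in burn 1, 2 and 3 and 0.737, 0.501 and 0.754 CPM in control 1, 2 and 3. Every burn library was above every control, with burn 1 the highest and burn 3 the lowest of its group. The fold change was 3.26, or 1.71 ± 0.37 on the log2 scale (edgeR unadjusted p = 0.00186, adjusted p = 0.934), and the log2 value was 0.86 between the 2 deepest libraries and 2.08 in the other 4. Ccl12, also called MCP-5, is a ligand of Ccr2. It had 3.84, 2.25 and 1.61 CPM in the burn libraries and 1.39, 1.34 and 0.792 CPM in the controls, again highest in burn 1 and without overlap (log2 fold change 1.14 ± 0.39; edgeR unadjusted p = 0.0202, adjusted p = 0.9998).

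Ccl8 and Ccl12 had the largest positive log2 fold changes of all tested members and are neighbouring genes, so the 250 bases before each RefSeq start (GRCm38.p6) are shown. Ccl8 is at chr11:82114935-82115184 and Ccl12 at chr11:82101595-82101844, both on the plus strand. Capitals mark GGAAATCA and the TATA box TATAAA. The longest runs shared by both were 3 of 8 letters, GGAAATCA, TCAGCATA and TATAAAAG, which holds the TATA box, and GGAAATCA was the one at the same position in both.
Ccl8: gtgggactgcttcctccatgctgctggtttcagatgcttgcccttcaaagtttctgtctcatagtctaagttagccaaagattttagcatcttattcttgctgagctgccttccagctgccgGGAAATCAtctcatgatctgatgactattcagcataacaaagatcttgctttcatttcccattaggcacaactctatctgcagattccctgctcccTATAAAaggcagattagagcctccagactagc
Ccl12: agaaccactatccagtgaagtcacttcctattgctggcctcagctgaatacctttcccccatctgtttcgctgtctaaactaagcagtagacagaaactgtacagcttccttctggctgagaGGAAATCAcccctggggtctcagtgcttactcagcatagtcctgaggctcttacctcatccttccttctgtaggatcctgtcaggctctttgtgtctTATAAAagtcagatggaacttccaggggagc
Aligned over 270 columns, gaps included, 150 were identical (55.6%). With the base before the start as -1, the GGAAATCA run began at -128 in both and occurred in 1.15% of the 27025 genes with a promoter entry. TATAAA began at -32 in Ccl8 and at -31 in Ccl12, and 14.3% of all genes held it in the same window. On either strand, neither window held the AP-1 letters TGANTCA (7.82% of all genes), the STAT letters TTCNNNGAA (8.13%) or the NF-kappaB motif (8.23%). Of the 45 members with an entry, 14 held TATAAA, 7 the AP-1 letters, 3 the STAT letters and 11 the NF-kappaB motif. Ccl2, Ccl7 and Ccl11, which lie beside Ccl12 and Ccl8, had no entry, so their windows could not be searched. Such matches describe letters, not binding.

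Ccl2, or MCP-1, the main ligand of Ccr2 and the principal attractant of blood monocytes, had 2.96, 2.45 and 2.74 CPM in the burn libraries and 1.20, 1.39 and 2.12 CPM in the controls. The lowest burn value lay just above control 3 (log2 fold change 0.76 ± 0.27; edgeR unadjusted p = 0.0217, adjusted p = 0.9998). Ccl11 was the most abundant of the group, with 19.5, 15.2 and 16.8 CPM in burn against 12.9, 12.1 and 10.6 CPM in control (0.53 ± 0.15; edgeR unadjusted p = 0.00692, adjusted p = 0.9998). Ccl7, or MCP-3, a further ligand of Ccr2, had 3.18, 2.55 and 1.64 CPM in burn and 1.69, 1.72 and 1.23 CPM in control. Burn 3 fell among the controls for Ccl7 (0.66 ± 0.30; edgeR unadjusted p = 0.0604). All 5 had positive values in each setting that gave one, which for Ccl8 leaves out the minimum count of 50.

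**Figure D2:**
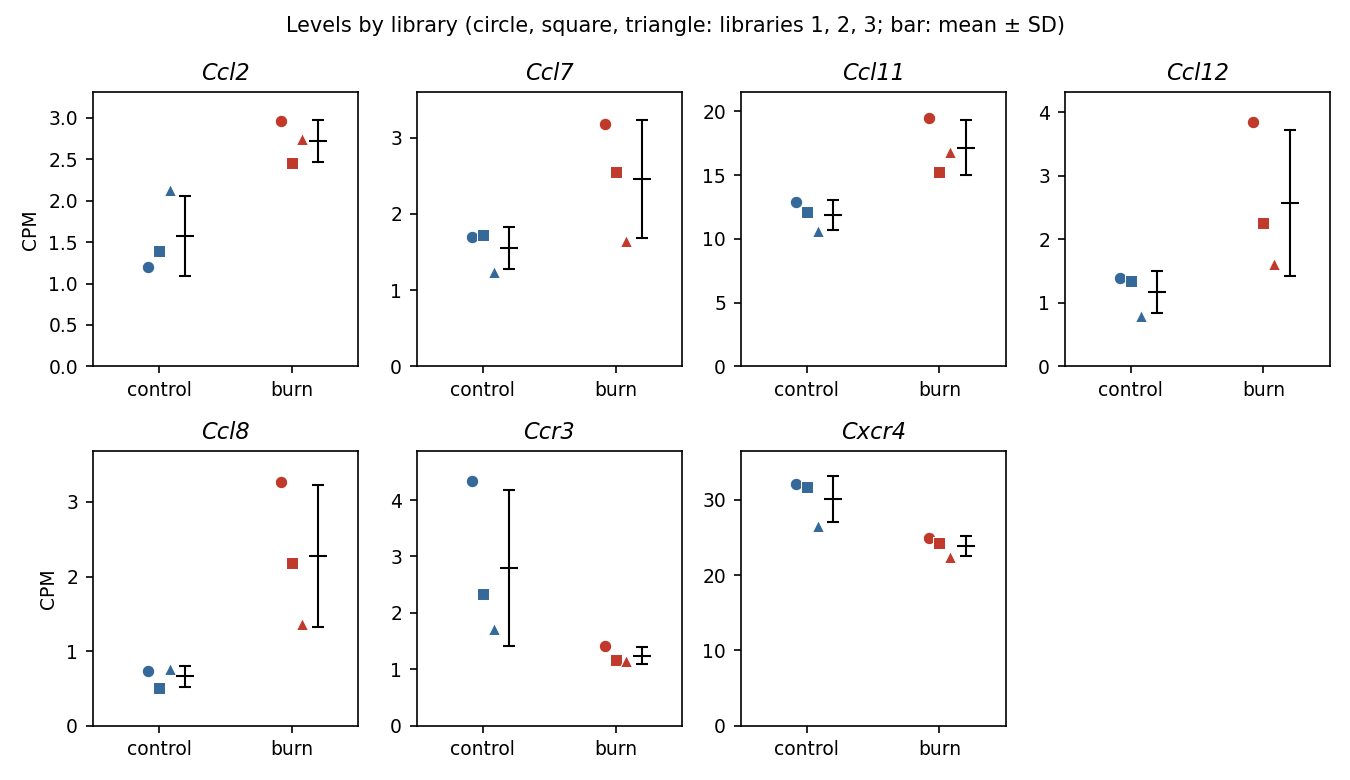
CPM by library of Ccl2, Ccl7, Ccl11, Ccl12, Ccl8, Ccr3 and Cxcr4 (linear axis from 0, mean ± SD beside the 3 libraries of each group). The groups overlap in the panel of Ccl7 and in no other panel.

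The 5 genes lie side by side on chromosome 11 (GRCm38, 82035571 to 82116799, a span of 81.23 kb) in the order Ccl2, Ccl7, Ccl11, Ccl12, Ccl8. All 5 log2 fold changes were positive, with a median of 0.76. The 4 with an edgeR unadjusted p under 0.05 are the ligands already listed above by that p. Over all genes 52.1% were positive and 2.04% were higher at that threshold, with a median of 0.01. The summed level of the 5 genes was 32.7, 24.7 and 24.1 CPM in burn and 17.9, 17.1 and 15.5 CPM in control, without overlap. Ccl11 was the largest part of each sum, so the sums largely repeat the single-gene values given above. Ccl1, the next chemokine gene on that side and a Ccr8 ligand, had a log2 fold change of -0.01. A second group of CC ligands further along the chromosome (83525778 to 83664683) holds Ccl5, Ccl9, Ccl6, Ccl3 and Ccl4, of which 3 were tested. Their median was -0.10, with 1 of 3 positive and none at an unadjusted p under 0.05. Whether the 2 groups of genes differ was not tested. Bulk levels cannot tell more cells of a type from more RNA per cell. A list of 16 macrophage genes, the main known source of these ligands with fibroblasts, summed to between 522 and 1038 CPM in burn and between 473 and 901 CPM in control. The groups overlapped. Of the 16, 13 had positive log2 fold changes, none had an unadjusted p under 0.05, and the median was 0.21. The 6 fibroblast genes also overlapped, at 3568 to 7008 CPM in burn and 4399 to 8182 CPM in control. A list of 10 spinal cord genes did not overlap, at 86.2 to 176.8 CPM in burn and 44.8 to 84.3 CPM in control. All 10 were positive with a median log2 fold change of 1.52, and 9 had an unadjusted p under 0.05. The part of the macrophage and spinal cord transcripts in these differences was not tested.

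**Figure D3:**
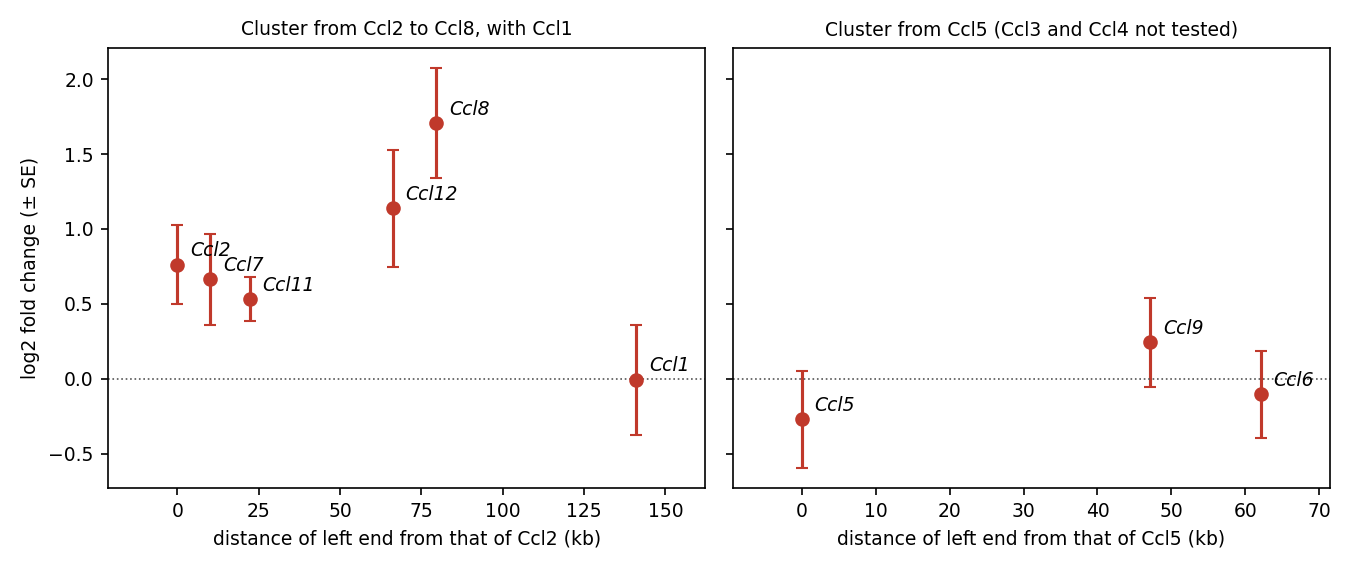
Log2 fold change (± SE) of burn against control by distance of each gene's left end along chromosome 11 from the first gene of its group, in kb. The 5 genes from Ccl2 to Ccl8 lie above 0 and Ccl1 at -0.01. In the second group Ccl9 lies above 0, at 0.24, and Ccl5 and Ccl6 below it.

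Of the 15 inflammatory CC ligands, 11 were tested and 8 were positive (72.7%), with a median of 0.53. At an edgeR unadjusted p under 0.05, 4 were higher (36.4%). These were again Ccl2, Ccl11, Ccl12 and Ccl8, so the count repeats the values given above. Over all genes 52.1% were positive, 2.04% were higher at that threshold and the median was 0.01. Ccl6 and Ccl9, abundant myeloid ligands of Ccr1, had overlapping groups and log2 fold changes of -0.10 ± 0.29 and 0.24 ± 0.30. Ccl6 ran from 9.57 to 16.0 CPM in burn and from 9.14 to 17.2 CPM in control. Ccl9 ran from 6.98 to 12.8 CPM in burn and from 5.39 to 9.59 CPM in control. For both, burn 3 and control 3 had the lowest value of their group. Ccl3 and Ccl4, the macrophage inflammatory proteins, were too low to test, with 25 reads in burn and 25 in control for Ccl3 and 30 and 16 for Ccl4.

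The homeostatic CC ligands, which position lymphocytes in tissues, gave 4 tested members, 2 positive and 2 negative. Ccl27a, a skin ligand of Ccr10, had 6.89 to 9.27 CPM in burn and 7.76 to 9.40 CPM in control (log2 fold change -0.13 ± 0.17). Ccl21a, a lymphatic ligand of Ccr7, had 1.32 to 2.92 CPM in burn and 1.39 to 2.95 CPM in control (0.15 ± 0.38). Ccl25, the thymic and gut ligand of Ccr9, had 2.59 to 2.92 CPM in burn and 2.16 to 2.84 CPM in control (0.19 ± 0.20), and Ccl28, the mucosal ligand of Ccr10, had 1.502 to 3.07 and 2.06 to 2.59 CPM (-0.04 ± 0.29). The groups overlapped for all 4. Exons of Ccl27a and Ccl25 overlap those of Il11ra1 and Elavl1 on the other strand, and whether reads were counted by strand is not stated, so their reads could include those of the partner.

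The neutrophil-attracting CXC ligands, marked by the residues glutamate, leucine and arginine before the first cysteine, were scarce apart from Ppbp. Cxcl1 had 26 reads in all burn libraries and 19 in all controls, Cxcl2 had 4 and 11, Cxcl5 had 16 and 25, and Cxcl3 and Cxcl15 had 0. Their receptor Cxcr2 was present, with 9.19, 9.64 and 5.22 CPM in burn and 10.3, 13.1 and 5.30 CPM in control (log2 fold change -0.25 ± 0.36), and the groups overlapped. The 12 neutrophil genes summed to 775 to 1610 CPM in burn and 800 to 1871 CPM in control. All 12 had negative log2 fold changes, with a median of -0.26, and none had an edgeR unadjusted p under 0.05. In both groups the deepest library had the lowest value of Cxcr2 and of the neutrophil list.

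Ppbp and Pf4, stored in platelet granules, ranged widely between libraries of the same group. Ppbp had 6.49, 27.2 and 6.51 CPM in burn 1, 2 and 3 and 44.1, 7.96 and 23.1 CPM in control 1, 2 and 3 (log2 fold change -0.92 ± 0.84). Without burn 2 the log2 fold change was -1.96 (edgeR unadjusted p = 0.0247), and without control 1 it was -0.24. Pf4 had 9.28, 13.1 and 7.45 CPM in burn and 21.3, 10.6 and 9.76 CPM in control (-0.49 ± 0.34). Both were highest in control 1 and, within the burn group, in burn 2. A list of 9 other platelet and megakaryocyte genes summed to 19.96, 43.3 and 16.4 CPM in burn and 59.7, 31.4 and 35.9 CPM in control, with the highest values in the same 2 libraries. All 9 had negative log2 fold changes and none had an unadjusted p under 0.05. A list of 12 skeletal muscle genes was also highest in those libraries, at 12030 CPM in control 1 and 10998 CPM in burn 2. The other libraries held 712 to 4036 CPM of it. The part of platelets or of muscle tissue in the levels of the 2 chemokines was not tested.

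**Figure D4:**
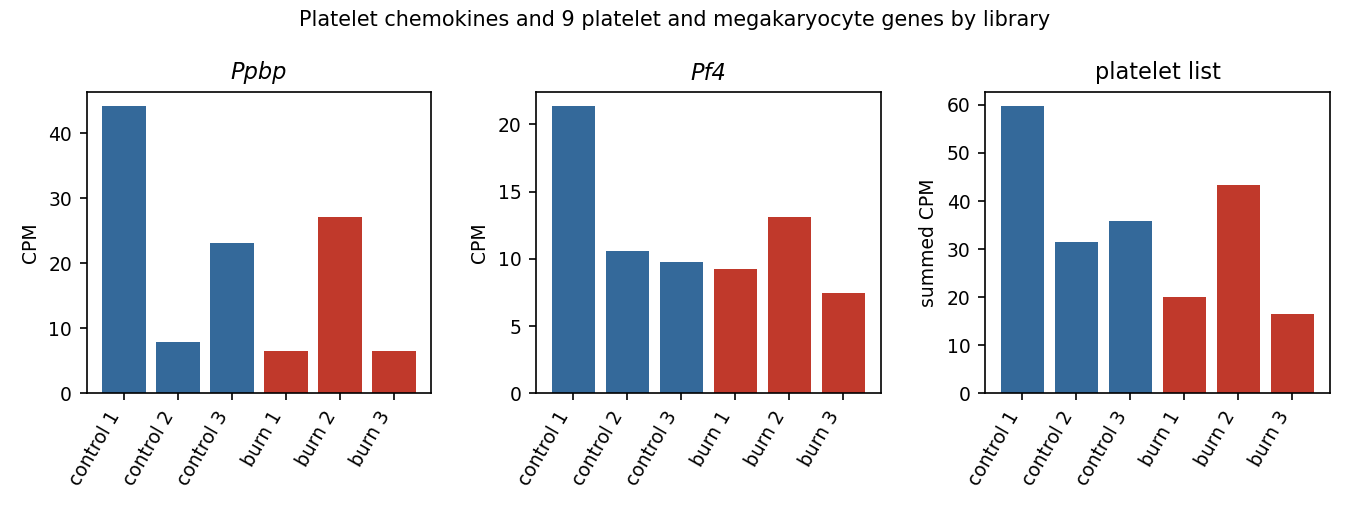
Bars from 0 show CPM of Ppbp and Pf4 and the summed CPM of 9 platelet and megakaryocyte genes in each of the 6 libraries. Control 1 has the highest bar in each panel and burn 2 the highest of the burn libraries.

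Among the other CXC ligands, Cxcl12 was the most abundant in CPM, with 51.4, 56.5 and 51.4 CPM in burn and 90.4, 56.0 and 57.3 CPM in control. Control 1 alone stood far above the rest, and the log2 fold change was -0.36 ± 0.19 (edgeR unadjusted p = 0.103). Without control 1 it was -0.09. Cxcl9, Cxcl10 and Cxcl11, interferon-induced genes named as ligands of Cxcr3, lie together on chromosome 5. Their log2 fold changes were positive, at 0.30 ± 0.24, 0.61 ± 0.44 and 0.22 ± 0.35, with overlapping groups. The annotation lists Cxcl11 as a polymorphic pseudogene, so its reads need not stand for a working ligand. Cxcl10 had 0.972, 1.99 and 2.84 CPM in burn and 0.901, 1.002 and 1.87 CPM in control, so that burn 1 fell among the controls. Cxcl9 ran from 1.29 to 1.55 CPM in burn and from 1.01 to 1.43 CPM in control, and Cxcl11 from 0.795 to 1.63 and from 0.723 to 1.24 CPM. Cxcl16, a membrane-bound ligand of Cxcr6 made by macrophages, had 17.3, 11.3 and 7.65 CPM in burn and 7.95, 10.1 and 6.57 CPM in control (0.56 ± 0.31; edgeR unadjusted p = 0.11). Burn 1 and burn 2 were above all controls and burn 3 was not. Exons of Cxcl10, Cxcl11 and Cxcl16 overlap those of Art3, Gm2673 and Zmynd15 on the other strand. Cxcl14, expressed in epithelium and fibroblasts, had 3.29 to 4.90 CPM in burn and 1.68 to 7.78 CPM in control (-0.20 ± 0.50), and the groups overlapped.

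Cx3cl1, or fractalkine, is a neuronal and endothelial ligand tethered to the membrane and signals to macrophages and microglia through Cx3cr1. It had 10.7, 8.11 and 7.86 CPM in burn and 6.72, 8.18 and 6.55 CPM in control, overlapping only through control 2 (log2 fold change 0.32 ± 0.18; edgeR unadjusted p = 0.121). Cx3cr1 had 34.1, 22.3 and 14.3 CPM in burn and 22.4, 23.4 and 15.9 CPM in control (0.19 ± 0.31). Burn 3 and control 3 were the lowest of their groups, as for the 16 macrophage genes. Exons of Cx3cr1 overlap Gm33858 on the other strand.

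Of the 10 CC receptors, 7 were tested, 3 positive and 4 negative, with a median of -0.11. Ccr2, the monocyte receptor of Ccl2, Ccl7 and Ccl12, was the most abundant CC receptor, with 47.0, 32.6 and 34.2 CPM in burn and 39.6, 33.4 and 27.3 CPM in control (0.18 ± 0.19). Its groups overlapped, and without burn 1 its log2 fold change was -0.0014. Ccr1, a myeloid receptor of Ccl6 and Ccl9, had 10.6, 9.97 and 4.87 CPM in burn and 10.3, 9.68 and 4.29 CPM in control (0.07 ± 0.40), with the deepest library lowest in each group.

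Ccr3, the eosinophil receptor of Ccl11, had 1.41, 1.16 and 1.14 CPM in burn and 4.34, 2.34 and 1.71 CPM in control. Every burn library was below every control, and the controls were widely spread (log2 fold change -1.18 ± 0.37; edgeR unadjusted p = 0.0131, adjusted p = 0.9998). Control 1 had the highest value, and without it the log2 fold change was -0.70. A list of 7 eosinophil genes, added after the values of Ccr3 were seen, summed to 82.1, 91.3 and 37.1 CPM in burn and 163, 178 and 60.6 CPM in control. Those groups overlapped and all 7 log2 fold changes were negative. At an edgeR unadjusted p under 0.05, 2 of the 7 were lower, beside 0.924% of all genes. The part of eosinophil transcripts in the Ccr3 values was not tested. Ccl11 was higher and its receptor lower in every burn library, with no adjusted p under 0.05 for either.

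Cxcr4 had 25.0, 24.2 and 22.4 CPM in burn and 32.1, 31.7 and 26.5 CPM in control. The burn values were tight and all below the lowest control (log2 fold change -0.33 ± 0.12, or 1.26-fold lower; edgeR unadjusted p = 0.0245, adjusted p = 0.9998). The sign was negative in every setting that gave a value, from -0.41 to -0.28. The 7 erythroid genes all had negative log2 fold changes, as had 5 of 6 tested cartilage and bone genes. Each of these 2 lists had 2 genes lower at an edgeR unadjusted p under 0.05, beside 0.924% of all genes. The groups overlapped in both sums. All 12 neutrophil genes were negative too, as were 7 of 10 tested lymphocyte genes, with none under that p in either list. Groups overlapped in those sums as well. The part of any of these lists in the Cxcr4 values was not tested. Ackr3, the atypical receptor that scavenges Cxcl12, had 17.1, 11.6 and 13.1 CPM in burn and 14.3, 15.3 and 11.9 CPM in control (0.01 ± 0.18), so its groups overlapped. The 12 remaining tested members were below 1 CPM on average, had overlapping groups and log2 fold changes from -0.82 to 0.54.

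**Figure D5:**
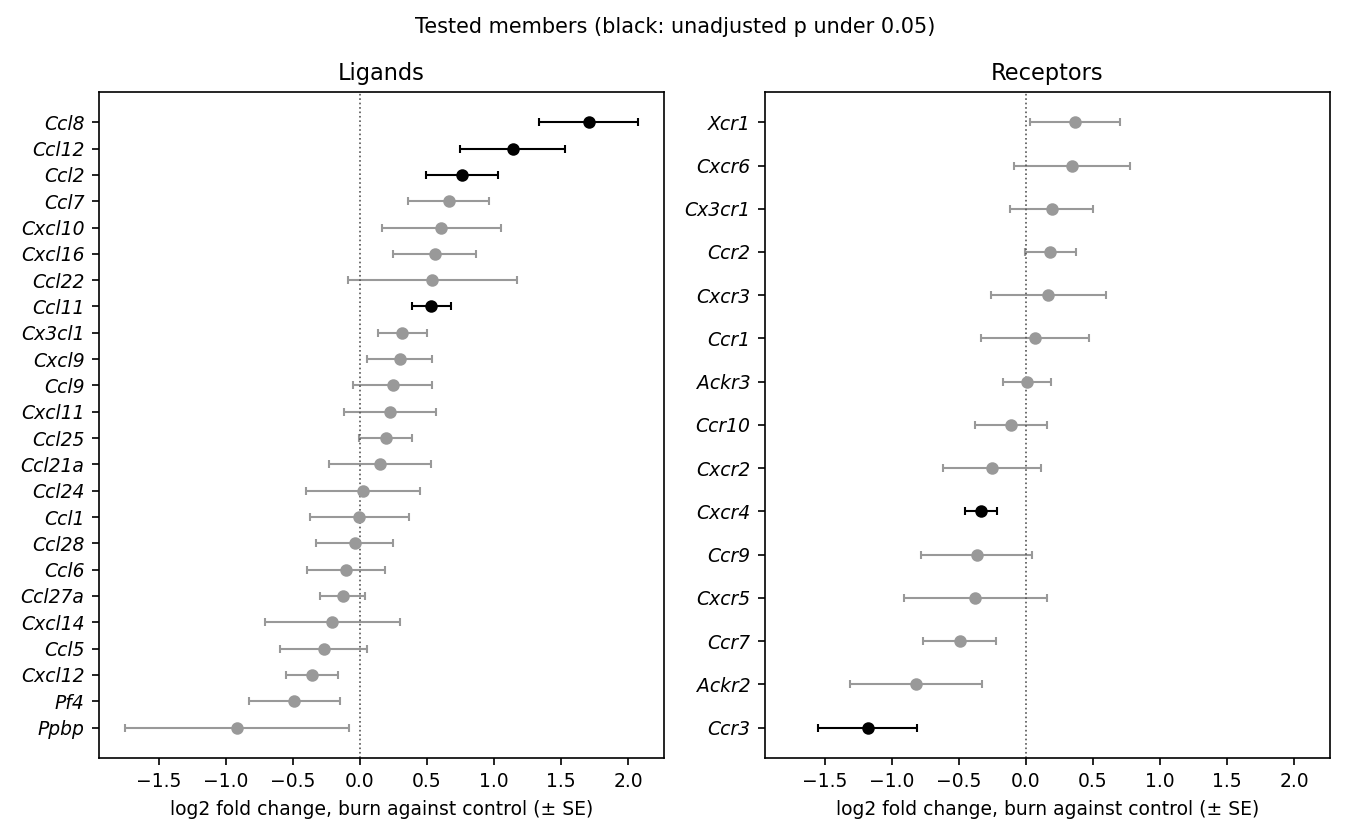
Log2 fold change of burn against control (± SE) for the 24 tested ligands and 15 of the tested receptors, with members at an unadjusted p under 0.05 in black. Ccl8 and Ccl12 stand highest among the ligands, and Ccr3 lowest among the receptors drawn.

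Ligands and receptors were set side by side. The Ccr2 ligands Ccl2, Ccl7 and Ccl12 had log2 fold changes of 0.76, 0.66 and 1.14 beside 0.18 for Ccr2. Cxcl12 and Cxcr4 were both negative, at -0.36 and -0.33, and Cx3cl1 with Cx3cr1 and Cxcl16 with Cxcr6 were positive on both sides, at 0.32 with 0.19 and 0.56 with 0.34. Ccl9 (0.24) was positive, as was Ccr1 (0.07), and Cxcl9 and Cxcl10 (0.30 and 0.61) were positive, as was Cxcr3 (0.17). Ccl27a and Ccl28 (-0.13 and -0.04) were negative, as was Ccr10 (-0.11). The signs were opposite for Ccl11 and Ccr3 (0.53 and -1.18), Ccl21a and Ccr7 (0.15 and -0.49) and Ccl25 and Ccr9 (0.19 and -0.37). They were also opposite for Cxcl12 and Ackr3 (-0.36 and 0.01) and for Ccl6 and Ccr1 (-0.10 and 0.07). These are pairs of single estimates, and no difference within a pair was tested.

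A list of 48 partner genes covered G proteins, arrestins, kinases, the Rac pathway, NF-kappaB and other regulators of chemokine signalling. Not all act downstream of the receptors. The list also held the receptors Ackr4, Ccrl2, Cmklr1 and Darc, the proteases Adam10, Adam17 and Dpp4, and the cytokines Tnf, Il1b and Ifng. Of the 48, 47 were tested. None was called at an edgeR adjusted p under 0.05. At an unadjusted p under 0.05, 1 was higher and none was lower. That is 2.13% higher, near the 2.04% of all genes, with 24 positive and 23 negative values and a median of 0.00. The gene was Elmo1, which with Dock2 activates Rac in migrating cells, at 83.2, 80.9 and 78.5 CPM in burn and 66.6, 70.8 and 68.4 CPM in control (log2 fold change 0.24 ± 0.09; edgeR unadjusted p = 0.0339). Its groups did not overlap.

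Of the 21 members not tested, 15 had reads, none above 0.398 CPM in any library. They were Ccl3, Ccl4, Ccl17, Ccl19, Ccl20, Cxcl1, Cxcl2, Cxcl5, Cxcl13, Cxcl17, Xcl1, Ccr4, Ccr6, Ccr8 and Cxcr1. Ccr8, the receptor of Ccl8, had 1 read in all burn libraries and 3 in all controls. Cxcl13, the B-cell attractant that acts on Cxcr5, had 16 and 6 reads. Ccl4 had 0.177, 0.397 and 0.213 CPM in burn and 0.109, 0.111 and 0.126 CPM in control. For Cxcl13 the values were 0.177, 0.132 and 0.122 CPM in burn and 0.0273, 0 and 0.0628 CPM in control. With reads this few, neither passed the filter for testing.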

How the data were processed

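The authors deposited raw counts of reads per gene symbol, 1 file per library, and these counts were used as they stand. Libraries were stranded total RNA read as single ends of 75 nucleotides, per the labels' protocols. Per the submitters' processing notes, the tools were STAR, SAMtools and HTSeq, and the builds GRCm38 and mm10. No version, annotation release or strand setting was given in the sources used here. The 5 tally lines at the end of each deposited file, 49.18% to 56.22% of entries, were left out.

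The members and gene lists were chosen with earlier results of these data known. Genes passing filterByExpr (minimum count 10, minimum total 15) were scaled by TMM and tested in edgeR 4.0.16 under R 4.3.3 with glmQLFit (robust) and glmQLFTest, two-sided, with Benjamini-Hochberg adjustment over all 17534 genes. Each SE is the log2 fold change divided by the root of F, without sign. RPKM used exon lengths of GENCODE M21, where 60 of the 61 members were found. Promoters came from RefSeq. Members were named when their mean reached 1 CPM or their unadjusted p was under 0.05. A list of 8 was to be named whatever the result, and all 8 reached 1 CPM. A member included in the counts is not reported here by name. Alternatives were RLE and upper-quartile scaling, no filter, a minimum count of 50, DESeq2 1.42.0, limma-voom 3.58.1, an adjusted p under 0.1, a depth term, the 4 shallower libraries alone, a replicate block and each library left out. The edgeR steps were tested on simulated data. All 6 libraries were used: between libraries of a group, chi-square over its degrees of freedom was 42.7 to 212, far above sampling noise.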

Additional observations from a re-analysis of the deposited data

How the results depend on the processing

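No tested member passed an adjusted p of 0.05 under any setting tried with the replicate numbers as titled, except Ccl8 in DESeq2, which called 1 member higher. Over all genes, where 4 were called higher and 0 lower, the count called higher was 11 in the 4 shallower libraries alone, 28 in DESeq2, 17 with a depth term, 2 with a minimum count of 50, 14 with no filter, 7 at an adjusted p under 0.1 and 1 to 6 with a library left out. Called lower were 4 in the 4 shallower libraries and 21 with the depth term. With a library left out, members at an unadjusted p under 0.05 ranged from 3 to 7 higher and from 1 to 2 lower. The replicate block could use only the shared numbers 1 and 2, whose same-numbered libraries deviated in opposite directions (correlation -0.385 over 17534 genes), and it called 0 members. With the numbers crossed, chosen after seeing the data, 5 members were called higher and 2 lower, 1 partner lower, and 103 genes higher and 310 lower.

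Of the 28 named members, 17 kept 1 sign in every setting that gave a value and 11 changed sign in some. Ccl8, Cxcl9 and Cxcl11 had no value at a minimum count of 50, and the crossed numbers were run for counts only. Ackr3 was -0.0352 in the 4 shallower libraries, -0.0018 with no filter, -0.0559 under the block and -0.0025 with upper-quartile scaling. Ccl21a was -0.0038 under the block, and Cxcl14 was 0.18 in limma-voom. With a library left out, the log2 fold changes ranged from -0.16 to 0.13 for Ackr3, -0.0889 to 0.49 for Ccl21a, -0.35 to 0.17 for Ccl28, -0.34 to 0.10 for Ccl6, -0.0184 to 0.44 for Ccl9, -0.24 to 0.37 for Ccr1, -0.0014 to 0.32 for Ccr2, -0.17 to 0.47 for Cx3cr1, -0.15 to 0.46 for Cxcl11, -0.62 to 0.49 for Cxcl14 and -0.54 to 0.0349 for Cxcr2. The causes were not tested. Depth limits the members with few reads: 34 had 10 or more in control 2 and 47 in control 3.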
